A study of Homo sapiens with 6 samples.

Results

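The 9 genes described here encode the class I antigen presentation route of the major histocompatibility complex (MHC): the heavy chains HLA-B, HLA-C, HLA-E and HLA-F, their light chain B2M, the peptide transporter subunits TAP1 and TAP2, the loading factor TAPBP and the transcriptional coactivator NLRC5. They are listed by name with no threshold on their values, as a contrast to class II presentation and with earlier results of these data known, and all 9 were found among the 17042 genes of the count table. The libraries were made from polyadenylated RNA of THP1, a human monocytic leukaemia cell line, so every value describes this 1 line. All cells received the phorbol ester PMA (100 ng/mL, 24 hours), which turns them into macrophage-like cells, and then the cytokine IL-4 (20 ng/mL, 24 hours). In 3 libraries the cells had been transfected with small interfering RNA against the long noncoding RNA RP11-184M15.1 before IL-4 (genotype RP11-184M15.1 knockdown), and 3 libraries were controls (genotype WT). The sources used here do not say what the controls were transfected with, nor whether each library came from its own culture, and the spread behind every p-value may therefore be only technical.

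Class I molecules carry short peptides from proteins made inside the cell to its surface, where cytotoxic T cells and natural killer cells read them. Proteasomes cut the peptides, TAP moves them into the endoplasmic reticulum, and tapasin, the product of TAPBP, holds the empty heavy chain and light chain beside TAP until a peptide fits. Almost all nucleated cells make class I molecules, and interferon raises their level. The promoters of class I genes can hold interferon response elements, NF-kB sites and the module bound by RFX factors and NLRC5. Class II molecules present material taken up from outside, and their coactivator is CIITA, a relative of NLRC5.

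The libraries held 10450043 to 14181343 counts. No row of the table carries the name RP11-184M15.1, so its level is not analysed here. All 10 macrophage markers checked were detected, with CSF1R at 1744 ± 47.5 CPM (the count scaled by library size) in the controls (SD, n = 3) and CD68 at 1131 ± 85.1 CPM. MRC1 was low, at 1.42 to 3.23 CPM. In edgeR CD14 rose (log2 fold change 0.34) and LYZ fell (-0.40), while the summed level of the 10 markers was 4673 to 4958 CPM in the controls and 4639 to 4835 CPM in knockdown. Of 7 T and natural killer cell markers 1 had a row, KLRD1, at no more than 0.67 CPM, and the summed level of the 4 B cell markers with a row was 5.86 to 7.61 CPM. Mitochondrially encoded mRNA summed to 19145, 23341 and 25584 CPM in control replicates 1, 2 and 3 and to 20795, 20121 and 20647 CPM in the knockdown libraries, so the controls spread more than the knockdown libraries. In these bulk libraries fewer cells expressing a gene and less RNA per cell cannot be told apart.

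The stretches upstream of the start site are shown to set HLA-F, the member that passed the test below, beside HLA-B, HLA-C and B2M, which did not. RefSeq's promoter windows (GRCh38.p14) matched 7 of the 9 members, all but HLA-E and NLRC5. Capitals mark matches, on either strand, to CCAAT, to TGACG, to the interferon response core (TTTC, any 2 bases, TTTC) or to the kappaB motif of NF-kB. No match to one of these motifs overlapped a match to another. The first 3 stretches run from 250 to 141 bases before the RefSeq start, and that of B2M from 200 to 101 bases before it. They lie at chr6:29723184-29723293 (HLA-F, plus strand), chr6:31357320-31357429 (HLA-B, minus strand), chr6:31272233-31272342 (HLA-C, minus strand) and chr15:44711317-44711416 (B2M, plus strand). The HLA-F stretch falls inside the wider gene bounds of GENCODE 29, with 15 of its bases in an annotated UTR, and the other 3 lie outside any annotated UTR of their gene.
HLA-F: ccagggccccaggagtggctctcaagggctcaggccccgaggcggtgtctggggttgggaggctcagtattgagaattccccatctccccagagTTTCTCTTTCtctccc
HLA-B: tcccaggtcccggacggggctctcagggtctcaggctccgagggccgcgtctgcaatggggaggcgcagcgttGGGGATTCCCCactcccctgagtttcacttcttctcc
HLA-C: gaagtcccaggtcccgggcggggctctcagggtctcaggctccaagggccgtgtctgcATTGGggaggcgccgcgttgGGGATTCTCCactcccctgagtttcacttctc
B2M: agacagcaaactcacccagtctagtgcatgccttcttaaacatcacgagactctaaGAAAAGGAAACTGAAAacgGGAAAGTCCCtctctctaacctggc

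Over the whole 250 bases before the start, the interferon response core matched in 5 of the 7 members (HLA-F, B2M, TAP1, TAP2 and TAPBP), against 3.0% of all 35116 windows of that length. The kappaB motif matched in 5 (HLA-B, HLA-C, B2M, TAP1 and TAPBP), against 10.0%. CCAAT matched in 5 (HLA-B, HLA-C, HLA-F, B2M and TAP1), against 32.0%, and TGACG in 4 (HLA-B, HLA-C, B2M and TAP2), against 21.2%. The HLA-F window thus held a match to the interferon response core and none to the kappaB motif or TGACG as written here. Under these exact patterns the HLA-B and HLA-C windows held the reverse. Near matches were not counted. The printed HLA-F stretch holds gagaattccc, close to the kappaB motif, and those of HLA-B and HLA-C hold tttcacttct, close to the core. The contrast between these windows therefore rests on exact spelling. B2M, TAP1, TAP2 and TAPBP, which did not pass the test below, matched the core too. A match describes letters in a window, not a bound site.

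Knockdown and control libraries were compared gene by gene, the 1 contrast the design holds. For class I, 1 gene rose and 8 did not pass the test. HLA-F was higher in knockdown by 25.8%, while HLA-B, HLA-C, HLA-E, B2M, TAP1, TAP2, TAPBP and NLRC5 did not reach an adjusted p of 0.05 (edgeR's quasi-likelihood test, Benjamini-Hochberg adjustment over 13405 genes). No member fell. Among all genes tested 1.22% were called higher and 2.83% in either direction. The members' median log2 fold change was 0.03, beside 0.00 for all genes tested, and their median absolute log2 fold change was 0.06, beside 0.09.

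**Figure D1:**
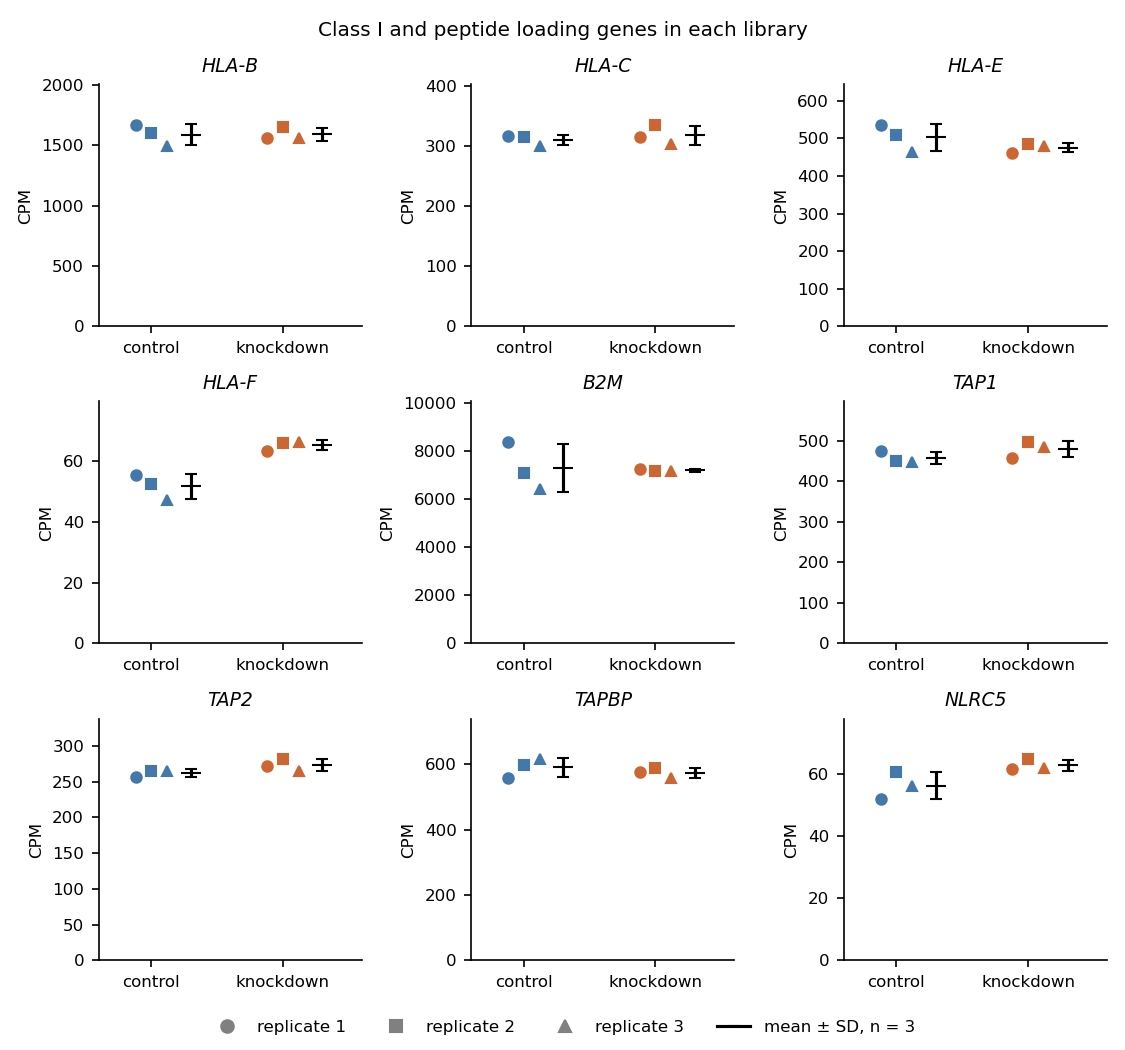
Level of each of the 9 genes (CPM, vertical axes from 0) in the 3 control and 3 knockdown libraries, with the mean and SD of each group (n = 3) in black. The knockdown libraries lie wholly above the controls for HLA-F (63.4 to 66.4 against 47.4 to 55.6 CPM) and, narrowly, for NLRC5, and overlap them in the other 7 panels.

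HLA-F encodes a nonclassical heavy chain of low polymorphism that can reach the surface without peptide and binds receptors of natural killer cells. The gene lies at chr6:29722775-29738528 on the plus strand (ENSG00000204642.13, GRCh38). It stood at 55.6, 52.4 and 47.4 CPM in control replicates 1, 2 and 3 and at 63.4, 65.9 and 66.4 CPM in knockdown replicates 1, 2 and 3. Every knockdown library was above every control, and the knockdown values lay closer together. The underlying counts were 589, 626 and 493 against 783, 939 and 809. The log2 fold change was 0.33 ± 0.06 (SE), with a 95% interval of 0.20 to 0.47 and an edgeR adjusted p of 0.00899. Leaving out knockdown replicate 2 or 3 ended the call (adjusted p = 0.0702 and 0.0617, log2 fold change 0.32 in both), and over all 6 single omissions the log2 fold change ran from 0.28 to 0.38.

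HLA-F was also set against other heavy chains within each library. Its share of the summed counts of HLA-B, HLA-C, HLA-E and HLA-F was 2.16%, 2.12% and 2.05% in the controls and 2.64%, 2.59% and 2.76% in the knockdown libraries. The log2 ratio of HLA-F to HLA-B counts was -4.94 ± 0.04 in the controls and -4.61 ± 0.05 in knockdown (SD, n = 3 each), a difference of 0.33. The groups did not overlap in the share or in the ratio. A two-sided exact permutation test gave p = 0.1 for each of the 3 ratios tested (adjusted p = 0.1), the smallest that 3 libraries against 3 can give, and these ratios were chosen after the single-gene values were known.

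**Figure D2:**
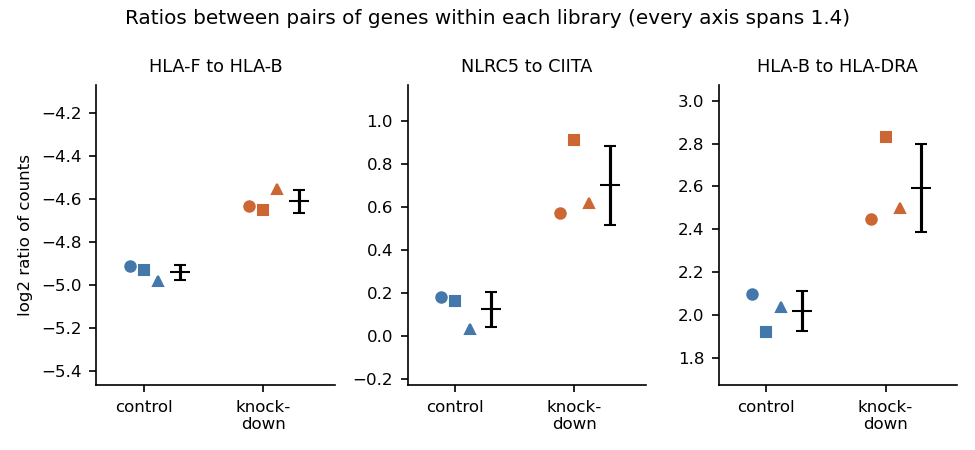
Log2 ratio of counts of pairs of genes within each library (vertical axes, all spanning the same length), by group, with mean and SD (n = 3). In all 3 ratios the knockdown libraries lie above the controls: by 0.33 for HLA-F to HLA-B, 0.58 for NLRC5 to CIITA and 0.57 for HLA-B to HLA-DRA.

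Counts of class I heavy chains can borrow reads from each other, because the genes are close copies. Of the 31-base words in the annotated transcripts of HLA-F, 3.62% also occur in transcripts of another gene, which is less than for HLA-B (12.2%), HLA-C (15.9%) or HLA-E (10.3%). The gene sharing most words with HLA-F was the pseudogene HLA-H (1.70% of HLA-F's words), followed by HLA-E (1.41%). HLA-F is also overlapped on the opposite strand by HLA-F-AS1, which was at no more than 0.57 CPM in any library, and by 2 pseudogenes without rows in the table. These shares refer to the reference alleles, and the alleles of the cell line were not examined.

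HLA-B and HLA-C are classical heavy chains that present peptides to CD8+ T cells and are ligands of killer-cell receptors. HLA-B was at 1671, 1600 and 1496 CPM in the controls and 1565, 1653 and 1561 CPM in knockdown. Those ranges overlap almost fully, and the log2 fold change was 0.00, with a 95% interval of -0.10 to 0.11. HLA-C was at 317, 315 and 301 CPM against 315, 336 and 304 CPM (log2 fold change 0.03, interval -0.07 to 0.13). HLA-B and HLA-C share 281 words of 31 bases with each other and their annotated gene bounds overlap on the same strand (chr6:31269491-31357188 and chr6:31268749-31272130, minus strand), so the split of reads between them is uncertain. The summed level of the 4 heavy chains was 2579, 2476 and 2310 CPM in the controls and 2404, 2539 and 2410 CPM in knockdown, which overlap.

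HLA-E, a nonclassical heavy chain that shows leader peptides of other heavy chains to the receptor NKG2A, was at 536, 509 and 465 CPM in the controls and 461, 484 and 479 CPM in knockdown. The 2 highest libraries were controls, yet the groups overlapped through control replicate 3. The log2 fold change of -0.09 (interval -0.19 to 0.02) did not pass (edgeR adjusted p = 0.471). The gene lies at chr6:30489467-30494205 on the plus strand.

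B2M, the light chain that every class I heavy chain needs for stable folding, was by far the most abundant member. It stood at 8390, 7085 and 6443 CPM in the controls and at 7255, 7194 and 7159 CPM in knockdown (chr15:44711487-44718877, plus strand). The 3 knockdown libraries were nearly equal and lay inside the range of the controls. The log2 fold change was -0.02, with an interval of -0.17 to 0.13. It was 0.09 without control replicate 1, and no omission of 1 library brought an adjusted p below 0.23.

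TAP1 and TAP2 form the transporter that pumps cytosolic peptides into the endoplasmic reticulum. TAP1 was at 474, 449 and 448 CPM in the controls and 457, 497 and 484 CPM in knockdown, a log2 fold change of 0.07 (interval -0.03 to 0.17). TAP2 was at 256, 265 and 265 CPM against 272, 282 and 265 CPM, a log2 fold change of 0.06 (interval -0.03 to 0.15). In both genes the groups touched or overlapped, and neither passed (edgeR adjusted p = 0.539 and 0.571). TAP1 (chr6:32845209-32853978, minus strand) is overlapped along its length by PSMB9 on the other strand. TAP2 (chr6:32821833-32838780, minus strand) shares 31.7% of its words with AL669918.1, a gene model laid over it on the same strand that had at most 5.11 CPM.

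TAPBP was at 558, 597 and 616 CPM in the controls and 577, 587 and 556 CPM in knockdown, with a log2 fold change of -0.04 (interval -0.14 to 0.06). The highest and the second highest library were controls, and the lowest was a knockdown library, with the rest mixed. The gene lies at chr6:33299694-33314387 on the minus strand.

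NLRC5, which drives transcription of class I heavy chain, B2M and TAP1 genes, was at 52.0, 60.7 and 56.1 CPM in the controls and 61.7, 64.9 and 62.0 CPM in knockdown. All 3 knockdown libraries lay above the controls, with 61.7 against 60.7 CPM in the nearest libraries. The log2 fold change of 0.16 ± 0.06 (SE) had an interval of 0.02 to 0.29 and an unadjusted p of 0.0237 in edgeR, and did not pass after adjustment (adjusted p = 0.230). Across all genes tested, 9.61% had the knockdown libraries wholly above the controls and 10.4% wholly below. Of the members HLA-F and NLRC5 lay above and none below. NLRC5 lies at chr16:56989485-57083531 on the plus strand.

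For the 8 members that did not pass, the 95% intervals of the fold change ran from 0.87-fold at the lowest (HLA-E) to 1.23-fold at the highest (NLRC5). Larger changes than these lie outside the intervals, while smaller ones were not resolved. Libraries were simulated at this depth, with the same spread per gene in both groups and genes drawn independently. In them edgeR called 44.4% of genes raised by 25% or lowered by the same factor. It called 66.4% of genes changed 1.5-fold and 85.6% of genes changed 2-fold. The changed genes were drawn from all 13405 tested, of every level, so these shares are not rates for the members. The real spread was also unequal. Between pairs of libraries, chi-square per degree of freedom was 2.79 to 6.79 in the controls and 1.90 to 2.28 in knockdown. The shares are therefore not detection rates for these data. In these 8 members the SE of the log2 fold change was 0.04 (TAP2) to 0.07 (B2M).

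Levels of different genes were compared per kilobase of the longest principal transcript. In the controls B2M led with 4285 ± 582 CPM per kilobase (SD, n = 3), followed by HLA-B with 1027 ± 56.8 and TAPBP with 313 ± 15.7. HLA-C (202 ± 5.72) and HLA-E (194 ± 13.7) did not differ beyond their spread. TAP1 (155 ± 5.04), TAP2 (105 ± 2.07), HLA-F (31.7 ± 2.53) and NLRC5 (8.25 ± 0.642) followed, each apart from its neighbours in all 3 controls. HLA-F, the gene that rose, was thus the least abundant of the 4 heavy chains, at 39.9 ± 0.979 CPM per kilobase in knockdown. With the shortest principal transcript, B2M stood at 7747 CPM per kilobase and the order was the same.

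The members did not vary as 1 block between libraries of a group. Among the controls, replicate 1 was highest in 6 of 9 members (HLA-B, HLA-C, HLA-E, HLA-F, B2M and TAP1) and lowest in the other 3 (TAP2, TAPBP and NLRC5), and control replicate 3 was lowest in the same 6. Over the 6 libraries, Pearson's r of deviations from the group means was 0.99 for HLA-E with HLA-F, 0.90 for HLA-F with B2M and -0.87 for B2M with TAPBP. Over all 36 pairs the median was 0.44. These values are descriptive, and the points share library and depth. Mitochondrially encoded mRNA ran the other way, with 12 of 13 genes lowest in control replicate 1 and 12 of 13 highest in control replicate 3. Class II genes were lowest among the controls in replicate 1 in 9 of 11, and among the knockdown libraries both class II (11 of 11) and mitochondrially encoded mRNA (11 of 13) were lowest in replicate 2. Interferon-stimulated genes were highest in control replicate 1 in 23 of 35 and lowest in control replicate 3 in 29 of 35. The part of these library differences in the group comparison was not tested.

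The genes whose pattern over the 6 libraries was most like the members' mean standardized level, among 5476 genes at a log2 CPM of 5 or more on average, were IFI35 (Pearson's r = 0.992), PLEKHO2 (0.988), C5AR1 (0.979), MAFF (0.974) and A2M (0.974). IFI35, an interferon-induced gene, was at 130, 129 and 115 CPM in the controls and 127, 141 and 127 CPM in knockdown. C5AR1, the receptor for complement fragment C5a, was at 186, 178 and 168 CPM against 182, 197 and 181 CPM. These genes were picked for their likeness to the members' mean. In them, as in that mean, control replicate 3 was lowest and knockdown replicate 2 highest. How high r runs by chance among 5476 genes over 6 libraries was not tested. None of the 5 passed the test between groups (edgeR adjusted p 0.511 to 0.749).

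Class II genes in the same libraries moved downward. Of 11 tested, 10 fell (background 1.61% called lower) and none rose, with a median log2 fold change of -0.56, beside 0.03 for the class I members and 0.00 for all genes. The count was 6 without knockdown replicate 2. For mitochondrially encoded mRNA the median was -0.16, and its part in the class II values was not tested. HLA-DRA, the class II alpha chain, was at 389, 424 and 364 CPM in the controls and 287, 232 and 277 CPM in knockdown. Its log2 fold change interval of -0.72 to -0.42 does not meet that of HLA-B (-0.10 to 0.11). Other alpha and beta chains fell too: HLA-DRB1 by 0.33 on the log2 scale, HLA-DRB5 by 0.42, HLA-DPA1 by 0.49, HLA-DPB1 by 0.71 and HLA-DQB1 by 0.56, although reads of the near copies HLA-DRB1 and HLA-DRB5 may be split uncertainly. CD74, the invariant chain that guides class II molecules, went from 1204 ± 137 CPM in the controls to 959 ± 23.4 CPM in knockdown (SD, n = 3), and HLA-DMA, a subunit of the class II peptide exchanger, fell by 0.58 on the log2 scale. Leaving out single libraries ended 3 of these calls besides that of CIITA, given below: HLA-DRB1 without knockdown replicate 2 (edgeR adjusted p = 0.0645) or 3 (0.0531), HLA-DRB5 without control replicate 2 (0.168), knockdown replicate 2 (0.158) or 3 (0.0907), and CD74 without control replicate 2 (0.101), knockdown replicate 2 (0.0988) or 3 (0.0743). HLA-DMB, the partner of HLA-DMA, was the gene that did not pass (log2 fold change -0.63, edgeR adjusted p = 0.0682). The summed level of the 13 class II genes was 1943, 2310 and 2192 CPM in the controls and 1709, 1548 and 1645 CPM in knockdown, beside the nearly level sums of the class I heavy chains. The log2 ratio of HLA-B to HLA-DRA was 2.02 ± 0.09 in the controls and 2.59 ± 0.21 in knockdown (SD, n = 3 each), with no overlap (exact permutation p = 0.1, adjusted p = 0.1, the smallest possible).

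CIITA and NLRC5, the class II and class I coactivators, were set side by side. CIITA was at 45.7, 54.3 and 55.0 CPM in the controls and 41.5, 34.6 and 40.2 CPM in knockdown, a log2 fold change of -0.42 (edgeR adjusted p = 0.0112) against 0.16 for NLRC5. CIITA lost its call on leaving out control replicate 2 (0.0977) or knockdown replicate 2 (0.106). NLRC5 and CIITA were near the same count in the controls (log2 ratio 0.18, 0.16 and 0.03), and NLRC5 was ahead in every knockdown library (0.57, 0.91 and 0.62). That difference of 0.58 separated the groups fully, as it had to, because the groups lay apart in opposite directions in the single genes. The exact permutation p of 0.1 (adjusted p = 0.1), again the smallest that the design allows, therefore adds nothing to the single-gene values.

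**Figure D3:**
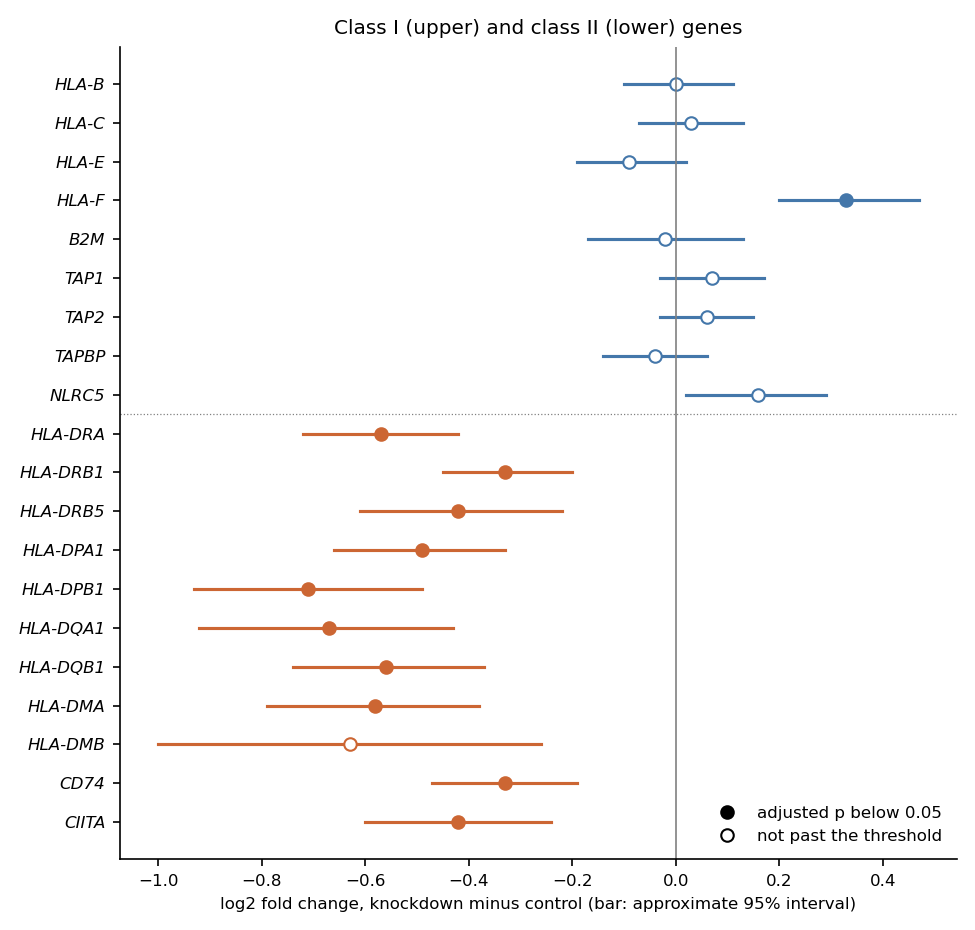
Log2 fold change (horizontal axis, knockdown minus control) of the 9 members, above the dotted line, and of 11 class II genes, below it. Bars are approximate 95% intervals and filled points passed an adjusted p of 0.05: HLA-F alone among the class I genes, to the right of 0, and 10 of 11 class II genes, to the left.

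Among other heavy chains of the class I fold, 2 of 16 tested genes rose and none fell, beside 1.22% called higher among all genes. Both belong to the CD1 family, which presents lipids to T cells. CD1E, a lysosomal form that assists lipid editing, was at 6.61, 7.87 and 6.83 CPM in the controls and 10.5, 10.3 and 11.2 CPM in knockdown (log2 fold change 0.58 ± 0.12 SE, edgeR adjusted p = 0.0151). CD1A was at 7.09, 7.04 and 6.64 CPM against 9.48, 10.8 and 9.03 CPM (0.50 ± 0.12 SE, adjusted p = 0.0427). The knockdown libraries lay above the controls in both, but CD1A lost its call without any 1 library (adjusted p 0.052 to 0.219), and CD1E without knockdown replicate 2 (0.0583) or 3 (0.0790). CD1C, a relative at 24.8 ± 1.94 CPM in the controls (SD, n = 3), had a log2 fold change of 0.10 that did not pass. The same held for FCGRT, the antibody-recycling receptor that pairs with B2M (0.04), and for MR1, which presents vitamin B metabolites (-0.03). MICB, a stress-induced ligand of the receptor NKG2D, had a log2 fold change of 0.19 with overlapping groups (edgeR adjusted p = 0.400).

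None of the 12 genes of endoplasmic reticulum chaperones and peptide trimming passed in edgeR, and 1 had an unadjusted p under 0.05. By DESeq2 and limma-voom none passed either. CALR, the lectin chaperone of the loading complex, was at 1902 ± 51.0 CPM in the controls and 1971 ± 23.4 CPM in knockdown (SD, n = 3 each), and CANX, which holds newly made heavy chains, at 1141 ± 32.4 and 1160 ± 22.1 CPM. PDIA3, the oxidoreductase bound to tapasin, had a log2 fold change of 0.06, and GANAB, a glucosidase that trims glycans for these chaperones, one of 0.09. The list's median was 0.05.

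Of 13 genes that generate peptides, none passed in edgeR, and 3 had an unadjusted p under 0.05. DESeq2 called 1 and limma-voom none. PSMB8, a catalytic subunit of the immunoproteasome, was at 196, 191 and 177 CPM in the controls and 195, 199 and 188 CPM in knockdown. NRDC, a cytosolic metalloprotease that can cut peptide precursors, was at 375, 366 and 366 CPM against 337, 331 and 332 CPM. The groups of NRDC did not overlap, with a log2 fold change of -0.15 that missed the threshold in edgeR (adjusted p = 0.0754) and passed in DESeq2 (0.0416). LAP3, an aminopeptidase, had a log2 fold change of -0.01, and PSME3, a proteasome activator, one of -0.05.

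Of 13 transcription factors that act on class I promoters, 2 fell and none rose, beside 1.61% called lower among all genes. IRF8, an interferon regulatory factor of myeloid cells, was at 34.0, 38.6 and 34.4 CPM in the controls and 27.7, 26.1 and 26.3 CPM in knockdown (log2 fold change -0.42 ± 0.08 SE, edgeR adjusted p = 0.00535). RFX5, the DNA-binding subunit of the RFX complex used by both class I and class II promoters, was at 141, 145 and 141 CPM against 122, 126 and 128 CPM (-0.19 ± 0.05 SE, adjusted p = 0.0409). All knockdown libraries lay below the controls in both. RFX5 lost its call without control replicate 2 or any 1 knockdown replicate (adjusted p 0.123 to 0.205) and with no filter (0.0534), and IRF8 without control replicate 2 (0.0521) or knockdown replicate 2 (0.0508). RELA and NFKB1, subunits of NF-kB, had log2 fold changes of -0.03 and 0.02, and NFYC, a subunit that binds CCAAT, had one of 0.00.

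Genes of the interferon pathway were counted next. None of 11 tested genes of interferon signalling passed in edgeR, with 1 at an unadjusted p under 0.05. That gene, the receptor chain IFNGR2, named after its values were seen, was at 496, 478 and 472 CPM in the controls and 540, 535 and 540 CPM in knockdown (log2 fold change 0.16, edgeR adjusted p = 0.0528). It passed with DESeq2, limma-voom, RLE scaling, upper-quartile scaling and the replicate block. Of 35 interferon-stimulated genes 1 fell and none rose, a share near the background of 2.83% called in either direction, and the median log2 fold change was 0.01. Unadjusted p-values under 0.05 were found for 3 of them on the higher and 2 on the lower side. The gene that fell was IDO1, the tryptophan-degrading enzyme, at 199, 196 and 184 CPM in the controls and 165, 167 and 168 CPM in knockdown (log2 fold change -0.21, edgeR adjusted p = 0.0208). It did not pass without control replicate 2 or any 1 knockdown replicate (adjusted p 0.0986 to 0.130). The summed level of the 35 genes was 7501, 7246 and 6714 CPM in the controls and 7076, 7690 and 7375 CPM in knockdown, which overlap.

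**Figure D4:**
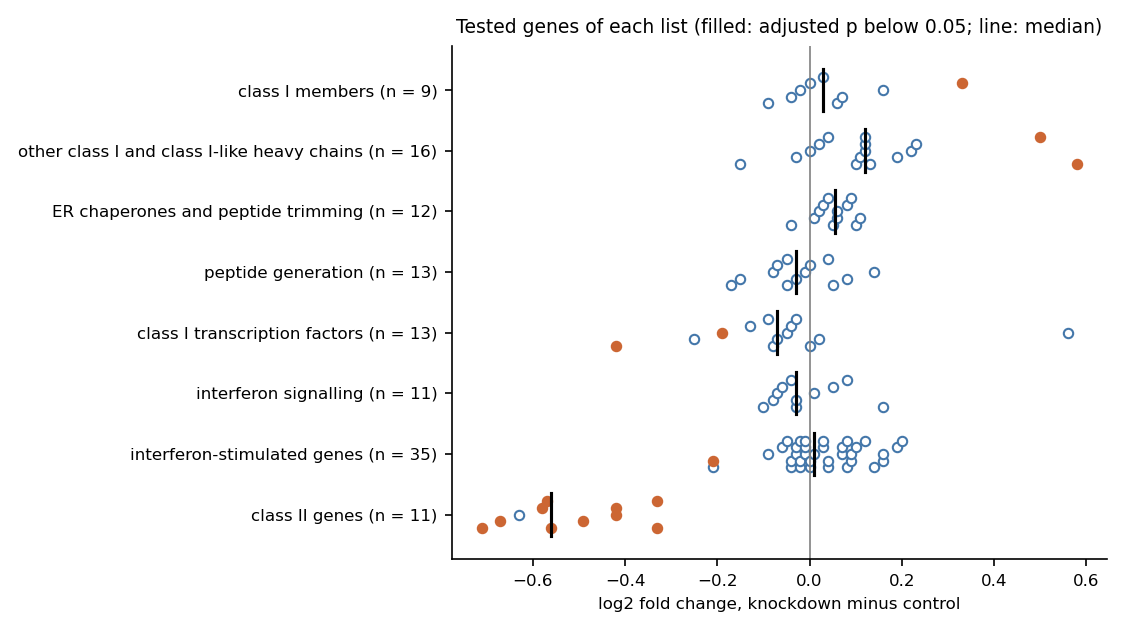
Log2 fold change (horizontal axis, knockdown minus control) of every tested gene in 8 lists (rows), with filled points for an adjusted p under 0.05 and a line at each median. The medians of the 7 upper lists lie between -0.07 and 0.12, and that of class II lies at -0.56.

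Among mitochondrially encoded mRNA, taken as a sign of RNA quality, MT-ND3 fell (log2 fold change -0.19, edgeR adjusted p = 0.0240) and the list's median was -0.16. The number of that list past the threshold was 12 without control replicate 1, and 0 without control replicate 2 or any 1 knockdown replicate. Calls over all genes moved too, from 379 to 542 without control replicate 1 and to 165 without control replicate 2. They were 139 to 194 without 1 knockdown replicate.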

How the data were processed

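The submitters' processing notes name hg38, DESeq2 and Salmon 0.11.2 without saying what each did. The authors deposited estimated counts per gene symbol, all whole numbers with a different total in each library; the labels give no further step, for 17042 genes in 6 libraries. Its lowest row sum was 10. Column names matched the sample titles. How the estimates were rounded and whether strand was kept is not stated there.

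Genes were tested on the counts as deposited with edgeR 4.0.16 quasi-likelihood (TMM, filterByExpr, group only, two-sided, threshold 0.05), over 13405 genes. CPM uses TMM factors. The SE is the log2 fold change divided by the square root of F, and the 95% interval uses it, so both are approximate. In 5 simulations, with equal spread in both groups and independent genes, 6.73% of calls were unchanged genes. Members and lists were chosen with earlier results of these data known. Some listed items are not reported here and are left out of the lists' counts. All members were named, as were listed genes past the threshold (up to 5 a list) and up to 4 of each class I list, or 6 of class II, by mean level. Positions, transcript lengths and 31-base words came from GENCODE 29 (GRCh38). Alternatives were DESeq2 1.42.0, limma-voom 3.58.1, RLE and upper-quartile scaling, no filter, 1 CPM in 3 libraries, a replicate block, leaving out each library and a threshold of 0.01. Other tools were R 4.3.3, scipy 1.17.1, Python 3.11.15, pandas 2.3.3, matplotlib 3.10.9 and numpy 2.4.6. Same-group libraries were no duplicates (chi-square per degree of freedom 1.90 to 6.79).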

Additional observations from a re-analysis of the deposited data

How the results depend on the processing

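Over 39 named genes and 505 values under an alternative, 455 kept both direction and side of the threshold, 36 kept their direction but lost the call, 1 gained a call (NRDC by DESeq2) and 13 changed sign, all of these in genes not called. DESeq2 gave no adjusted p for CD1E and CD1A.

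The number of genes called was 379, and 150 at an adjusted p under 0.01. With 1 library left out it ran from 139 to 542. Leaving out 1 library gave 0 to 1 class I members called, 0 to 1 other heavy chains, 0 to 1 genes of peptide generation, 0 to 2 transcription factors, 0 to 1 of interferon signalling, 0 to 2 interferon-stimulated genes, 6 to 11 class II genes and 0 to 12 of mitochondrially encoded mRNA. At 0.01 there were 0 other heavy chains, 1 transcription factor, 0 interferon-stimulated genes and 0 of mitochondrially encoded mRNA. The other heavy chains called were 0 by DESeq2, which gave no adjusted p for CD1E and CD1A, and 1 by limma-voom. Peptide generation had 1 by DESeq2 and transcription factors 1 with no filter. Interferon signalling had 1 by DESeq2, limma-voom, RLE, upper-quartile scaling and the replicate block. HLA-F, the 1 member called, was also called by DESeq2, limma-voom, both scalings, both filters, the block and at 0.01.

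With 1 library left out, HLA-B ran from -0.03 to 0.04, HLA-C from -0.01 to 0.07, B2M from -0.10 to 0.09, FCGRT from -0.01 to 0.07, MR1 from -0.08 to 0.01, LAP3 from -0.02 to 0.00 and NFYC from -0.04 to 0.02. HLA-B was negative without control replicate 3 (-0.03) or knockdown replicate 2 (-0.02), and NFYC was 0.00 by DESeq2, RLE and upper-quartile scaling. The cause of these shifts was not tested.

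Deviations of same-numbered libraries correlated only weakly (0.07, 0.09 and 0.05), although each library correlated best with its own number. Differently numbered libraries gave -0.06 to -0.01. Whether the replicate numbers mark pairs was not settled by these values, and the main fit used group only. With the replicate block 488 genes were called. Members differed in depth (HLA-F and NLRC5 had 493 to 939 counts a library), but the SE was 0.06 for both and 0.07 for B2M, the member with the most counts.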
